A study of Mus musculus with 3 samples.

Results

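A set of 9 genes that mark the glial cells of the brain were followed on a tiling array of immunoprecipitated methylated DNA from mouse frontal cortex. They were Mbp, Mog, Olig1 and Olig2 of the oligodendrocyte lineage, Gfap, Aqp4 and S100b of astrocytes, and Cx3cr1 and Csf1r of microglia. Members were all non-control probes that started in 8 windows of 30 to 140 kb placed around these genes on mouse build mm9, Olig1 and Olig2 sharing 1 window. The windows held 224 of the 409597 placed probes. Probes whose starts lay at most 500 bp apart were joined, which gave 14 tiled regions of at least 3 probes, out of 28880 on the array, and 1 run of 2 probes in the Olig1/Olig2 window that was not tested as a region. Regions are named after their window. No annotation of mm9 was used, so a region may belong to another gene than the marker of its window. The lowest-coordinate Gfap region crossed the border of its window, with 1 of its 10 probes inside, and was kept whole.

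The series held 1 group of 3 arrays. Each array compared bound with input DNA of a pool of frontal cortex from 3 naive male C57BL/6 mice of 2 months, and there was no second tissue, genotype or treatment. Bound DNA carried Cy5 and input Cy3 on every array, so an effect of the dye cannot be told apart from enrichment. The titles number the replicates 1 to 3, whereas the descriptions call each array the same replicate. If arrays shared a pool, the errors and p-values would measure only the spread between arrays. According to its title, the study concerned methylated start sites of genes and the binding of the TATA-binding protein there.

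Neurons, oligodendrocytes, astrocytes and microglia all contribute DNA to frontal cortex, and bulk DNA does not tell them apart. Methylated cytosine in mammals lies mostly at CpG dinucleotides, and many CpG-rich promoters are unmethylated in most tissues, while CpG-poor promoters of cell-type genes are often methylated where the gene is silent. Methylation of Gfap is a textbook case, being present in early neural precursors and lost when they become astrocytes. A value below is log2 of bound over input signal minus the median of the array's probes, as a mean ± SD over 3 arrays (n = 3). Zero is therefore the median probe and no reference for unmethylated DNA. Because the antibody captures a fragment better the more methylated CpGs it holds, a low value can stand for few CpGs as well as for little methylation. RNA was not measured, and no marker could be checked by its expression.

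Promoter sequences were read from RefSeq tables of build GRCm38.p6, another build than that of the array, for 5 of the 9 genes (Mog, Gfap, Olig2, S100b and Cx3cr1). Mbp, Aqp4, Csf1r and Olig1 had no entry. Printed are 3 of them, because they include the single-region windows with the highest and the lowest level, Cx3cr1 and S100b, and the only CpG-rich promoter among the 5. Each run is the 250 bases before the annotated start, 5′ to 3′ on the strand of the gene, with every CG in capitals.
Olig2, chr16:91225300-91225549: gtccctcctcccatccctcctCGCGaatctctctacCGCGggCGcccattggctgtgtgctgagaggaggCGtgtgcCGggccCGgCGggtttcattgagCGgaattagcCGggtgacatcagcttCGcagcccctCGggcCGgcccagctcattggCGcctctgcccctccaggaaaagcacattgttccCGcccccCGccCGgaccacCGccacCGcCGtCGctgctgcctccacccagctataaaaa
S100b, chr10:76253586-76253835: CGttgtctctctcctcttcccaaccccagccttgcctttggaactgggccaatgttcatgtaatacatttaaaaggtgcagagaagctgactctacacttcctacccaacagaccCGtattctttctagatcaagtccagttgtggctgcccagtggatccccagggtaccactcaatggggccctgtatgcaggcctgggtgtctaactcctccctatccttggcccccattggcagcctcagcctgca
Cx3cr1, chr9:120068297-120068546: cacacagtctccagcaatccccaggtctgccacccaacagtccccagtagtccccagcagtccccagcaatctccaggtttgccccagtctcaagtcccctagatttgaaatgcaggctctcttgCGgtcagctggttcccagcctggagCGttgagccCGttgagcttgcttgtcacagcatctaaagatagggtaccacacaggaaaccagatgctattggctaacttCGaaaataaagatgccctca
The Olig2 promoter, counted over 300 bases that reach 50 past the start, held 25 CpGs, more than 81.6% of the 32851 promoters in the table. Over the same length S100b, Gfap and Mog each held 3 and Cx3cr1 held 5, against a median of 7 over all promoters. The motif TATAAA, searched on both strands, was found in Olig2, where it begins 8 bases before the annotated start, and in 13.6% of all promoters. These letters were not in the other 4 sequences. Array regions could not be placed on these sequences, since the builds differ, and no region below is called a promoter.

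Of the 14 regions, 6 were higher than the array median and 7 lower by limma's test with adjustment over all regions, against 28.0% higher and 38.1% lower among all 28880 regions. Region means ran from -1.24 to 1.97 with a median of -0.24, and the median of all regions was -0.11. With arrays centred on the mode 3 regions were higher and 8 lower, against 8.70% and 76.8% of all regions under that setting. With the series matrix values 3 were lower, against 36.5%. With normexp background correction 6 and 7 were again called, at levels from -0.50 to 1.34. Both microglial regions were higher. Of the 6 regions of the oligodendrocyte lineage 2 were higher, 3 lower and 1 neither, and of the 6 in astrocyte windows 2 were higher and 4 lower. Among the 231 probes in these regions, 70 were higher and 58 lower, against 22.4% and 23.6% of all probes. Of the 70 higher probes, 60 stood well above background on all arrays in each channel and 4 on no array in either. Bound DNA was not well above background on any array for 13 of the 58 lower probes. Their ratio is an upper limit where input was above background, which it was not on every array for each of them. Further lower probes had bound DNA above background on only 1 or 2 arrays. The 13 are therefore no counterpart of the 60, and more of the lower ratios are limited in part. Without replicate 2 there were 35 higher and 29 lower probes, and without replicate 3 there were 46 and 30.

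**Figure D1:**
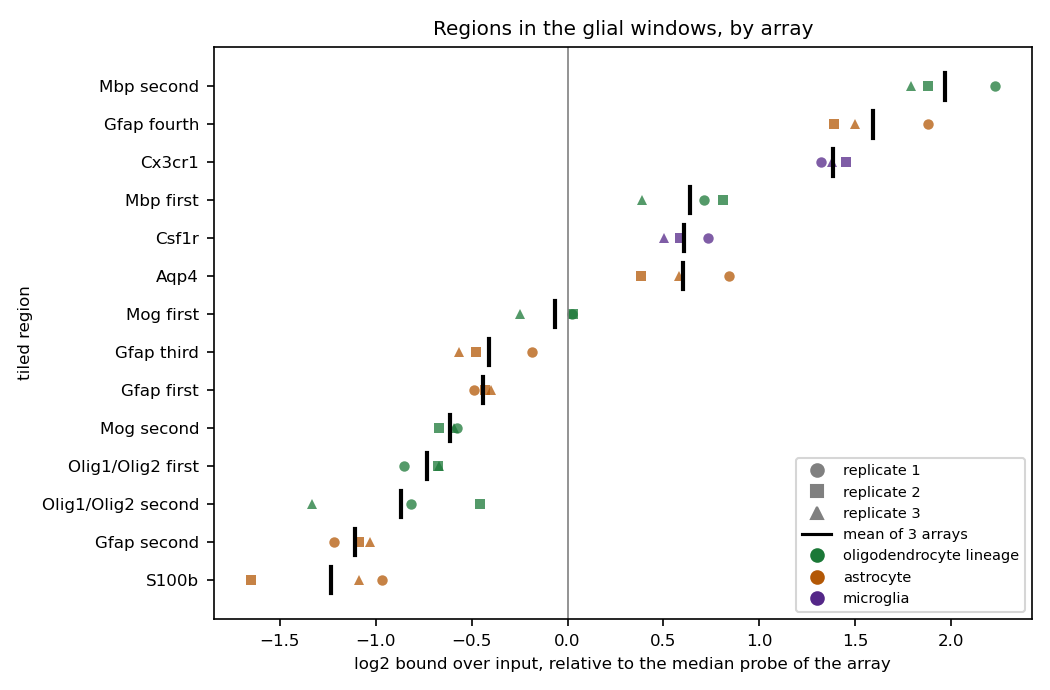
Log2 bound over input of the 14 tiled regions (vertical axis) relative to the median probe (horizontal axis), with 1 symbol per array and a black bar for the mean of 3 arrays; colours give the cell class of the window. The second Mbp region, the fourth Gfap region and Cx3cr1 stand at 1.32 or more on every array, and S100b and the second Gfap region lie lowest.

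A group of 3 regions stood apart at the top of the order. These were the second Mbp region (1.97), the fourth Gfap region (1.59) and Cx3cr1 (1.39), each overlapping the next of the group over the 3 arrays. Array by array, the second Mbp region was above the fourth Gfap region on all 3, by 0.38 ± 0.10. Below the group came a gap of 0.75 ± 0.21, without overlap of the arrays, to the first Mbp region. That region, Csf1r and Aqp4 lay between 0.60 and 0.64 and were in no fixed order across arrays. A further gap without overlap of the arrays, of 0.67 ± 0.27, lay between Aqp4 and the first Mog region. From there to S100b, neighbours in the order differed by a mean of 0.34 or less. Of these differences only that of the first Gfap and the second Mog region came without overlap of the arrays (0.17 ± 0.08). These steps in the order were not tested.

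**Figure D2:**
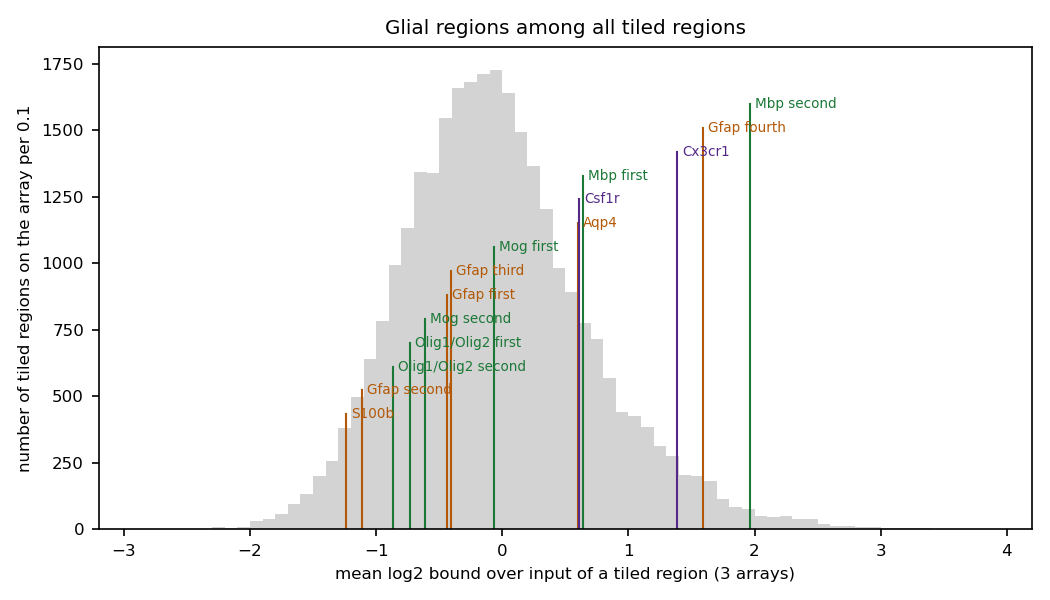
Number of tiled regions on the array (vertical axis, grey bars, per 0.1 of log2 ratio) by mean log2 bound over input of 3 arrays (horizontal axis), with each glial region as a coloured line whose height carries no value. The second Mbp region lies above 98.9% of all regions and S100b above 3.68%.

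Olig1 and Olig2 are neighbouring basic helix-loop-helix transcription factors that specify the oligodendrocyte lineage. Both regions of their window on chromosome 16 were low. The first, from 91224607 to 91225975 (17 probes over 1369 bp), was at -0.85, -0.67 and -0.67 on the arrays, a mean of -0.73 ± 0.10 (n = 3, limma adjusted p = 0.000171). The second, from 91269570 to 91270163 (7 probes over 594 bp), was at -0.82, -0.46 and -1.33, a mean of -0.87 ± 0.44 (limma adjusted p = 0.000373). All arrays were below 0 in both. Their difference of -0.14 ± 0.47 was not called (limma adjusted p = 0.538). Over probes above background in both channels that difference turned to 0.69 and was called. This filter leaves out probes for low bound signal, which is part of the ratio, so the turn is no independent result. In the second region it left out the probes at -2.98, -2.02, -1.88 and -0.22. With both channels above background the second region was at -0.12 and no longer called, on a zero set anew at the median of the probes kept. Against the array median, the probes of the region that passed this filter were at -0.72, 0.67 and 1.06. With the series matrix values the second region was at -0.42 and not called.

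Within each of these regions the low values were concentrated in a stretch. In the first, 6 consecutive probes over 390 bp, from 91224960 to 91225349, averaged -1.63 (-1.86, -1.58 and -1.44), and each was called lower. Its minimum was -2.05 ± 0.39 at 50 bp from the midpoint on the lower-coordinate side, where input was above background on all 3 arrays and bound DNA on none. The 5 probes from 134 to 420 bp on the other side lay between -0.61 and 0.66, with none called. The lower-coordinate side was at -1.19 ± 0.29 and the other at -0.33 ± 0.08, a difference of -0.86 ± 0.36 (limma adjusted p = 0.00504). The centre lay below the edges by -0.96 ± 0.35 (limma adjusted p = 0.00756), a call lost without replicate 2, where it was -0.78.

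The sides of the second Olig1/Olig2 region differed most in the set. Its lower-coordinate side was at -2.29 ± 0.74 and its higher-coordinate side at 0.20 ± 0.48. The difference was -3.39, -1.73 and -2.36 on the arrays, with a mean of -2.49 ± 0.84 (n = 3, limma adjusted p = 4.34e-05), larger in size than 99.4% of the 25862 regions compared by sides. All arrays had the same sign. With normexp the difference was -0.72 and still called, and no value could be had for it with the series matrix values or with dim probes left out by either filter. The low side rests on 3 probes with 1 of 9 bound and 7 of 9 input measurements well above background. Its level is therefore close to an upper limit only where input was measured. The lowest probe, from 91269744 to 91269796, was at -2.98 ± 0.87 with input above background on all 3 arrays, and the highest, from 91270045 to 91270089, at 1.06 ± 0.43 (limma adjusted p = 0.0244) with each channel above background on all 3. The untested run of 2 probes just before this region was at -0.10 and 0.23.

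Mbp encodes myelin basic protein, which compacts the myelin sheath, and the locus also makes the Golli transcripts from an upstream start. Both regions of its window on chromosome 18 were high. The second, from 82722678 to 82724196 (15 probes over 1519 bp), had the highest level of the set, at 2.23, 1.88 and 1.79, a mean of 1.97 ± 0.23 (n = 3, limma adjusted p = 2.38e-07). With loess it was at 1.34, below the fourth Gfap region at 1.68. The first, from 82643353 to 82644690 (17 probes over 1338 bp), was at 0.71, 0.81 and 0.39, a mean of 0.64 ± 0.22 (limma adjusted p = 0.000792). The arrays of the regions did not overlap. The second exceeded the first, 77987 bp away, by 1.33 ± 0.23 (limma adjusted p = 5.8e-06). The zero point mattered for the lower one, which was at -0.08 and not called with arrays centred on the mode of their probes, whereas the higher one stayed called at 1.25.

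In the second Mbp region 12 of 15 probes were higher, and bound DNA was well above background in 43 of 45 measurements. Its flank of lower coordinates held 6 consecutive higher probes over 657 bp with a mean of 2.74 (2.82, 2.64 and 2.77). The highest probe, from 82722940 to 82722991, reached 3.48 ± 0.16 (limma adjusted p = 0.0038). Between the flanks was a narrow trough, with 3 probes within 70 bp of the midpoint at -0.30 ± 1.09, 0.72 and 0.76, none of them called. Centre probes averaged 0.89 ± 0.47 against 2.04 ± 0.11 at the edges, a difference of -0.71, -1.44 and -1.30 on the arrays with a mean of -1.15 ± 0.38 (limma adjusted p = 0.00293). Its lowest probe was above background in each channel on 1 array only, so the bottom of the trough is poorly measured.

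In the first Mbp region no trough at the midpoint was called. Off the midpoint, on the higher-coordinate side, the probes at 108.5, 159.5 and 373.5 bp were at 0.14, -0.06 and -0.76. The probe at 269.5 bp was at 0.56, and none of these was called. Of the 17 probes of the region 7 were higher and none lower. The longest run of higher probes covered 240 bp next to the midpoint, with a mean of 0.98. Its centre (0.60 ± 0.08) and edges (0.54 ± 0.50) differed by 0.07 ± 0.49 (limma adjusted p = 0.847), and the arrays did not share a sign. Its sides differed by 0.41 ± 0.16 (limma adjusted p = 0.0942) and those of the second region by 0.30, neither being called. With the series matrix values the difference in the first was 0.86 and was called, and in the second loess gave 0.66 and either filter on dim probes 0.56, both called.

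Mog encodes a glycoprotein on the outer surface of myelin and lies next to Zfp57 on the lower-coordinate side in RefSeq, with Gabbr1 on the other. It is transcribed towards lower coordinates. Which of these genes the regions belong to was not determined. Its window on chromosome 17 held the longest tiled stretch of the set, from 37136910 to 37141657, with 42 probes over 4748 bp. The mean there was near the array median, at 0.02, 0.03 and -0.25, or -0.07 ± 0.16 (limma adjusted p = 0.651). The mean covered sides of opposite sign. The lower-coordinate side was at 0.71 ± 0.35 with 8 of 18 probes higher and none lower, and the higher-coordinate side at -0.65 ± 0.01 with 11 of 24 lower and 1 higher. Their difference was 1.53, 1.59 and 0.97, with a mean of 1.37 ± 0.34 (n = 3, limma adjusted p = 0.000284). Bound DNA was above background in 30 of 54 measurements of the lower-coordinate side and 35 of 72 of the other. Some of the 8 higher probes were above background in neither channel on any array.

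The longest run of lower probes in this stretch was 8 probes over 536 bp, from 37139817 to 37140352, with a mean of -1.34 (-1.54, -1.15 and -1.32) and 18 of 24 bound measurements above background. The highest probe, from 37137961 to 37138008, was at 2.03 ± 0.22 (limma adjusted p = 0.00404) each channel being above background on all arrays. With probes joined only up to 250 bp apart, the piece that shared most probes with this stretch was at -0.83 and called lower. Restricted to probes above background in both channels, the whole stretch was at -0.54 and called lower. That setting takes the median of the probes it keeps as its zero, so its value cannot be set beside the -0.07 of the main setting. Against the array median, the probes kept ran from -1.79 to 2.03. How far the moved zero accounts for the call was not tested. Over probes with input above background, on the zero of the main setting, the stretch was at -0.40 and also called.

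The second Mog region, from 37159939 to 37161494 (14 probes over 1556 bp), was low, at -0.58, -0.67 and -0.59, a mean of -0.61 ± 0.05 (n = 3, limma adjusted p = 0.000555). Every array was below 0. With the series matrix values it was at -0.23 and not called. It lay below the first by -0.55 ± 0.18 (limma adjusted p = 0.00874), a difference that was not called without replicate 2, where it was -0.47, nor with loess, the series matrix values or input above background. At its lower-coordinate end 4 consecutive probes over 323 bp averaged -1.68. The centre (0.40 ± 0.63) was called above the edges (-1.32 ± 0.09), by 1.72 ± 0.69 (limma adjusted p = 0.0005). The highest probe of that centre, 15 bp from the midpoint, was at -0.44, 2.78 and 0.75, with bound DNA above background on no array. That contrast therefore rests largely on values that were not measured above background, and no value could be had for it with dim probes left out.

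**Figure D3:**
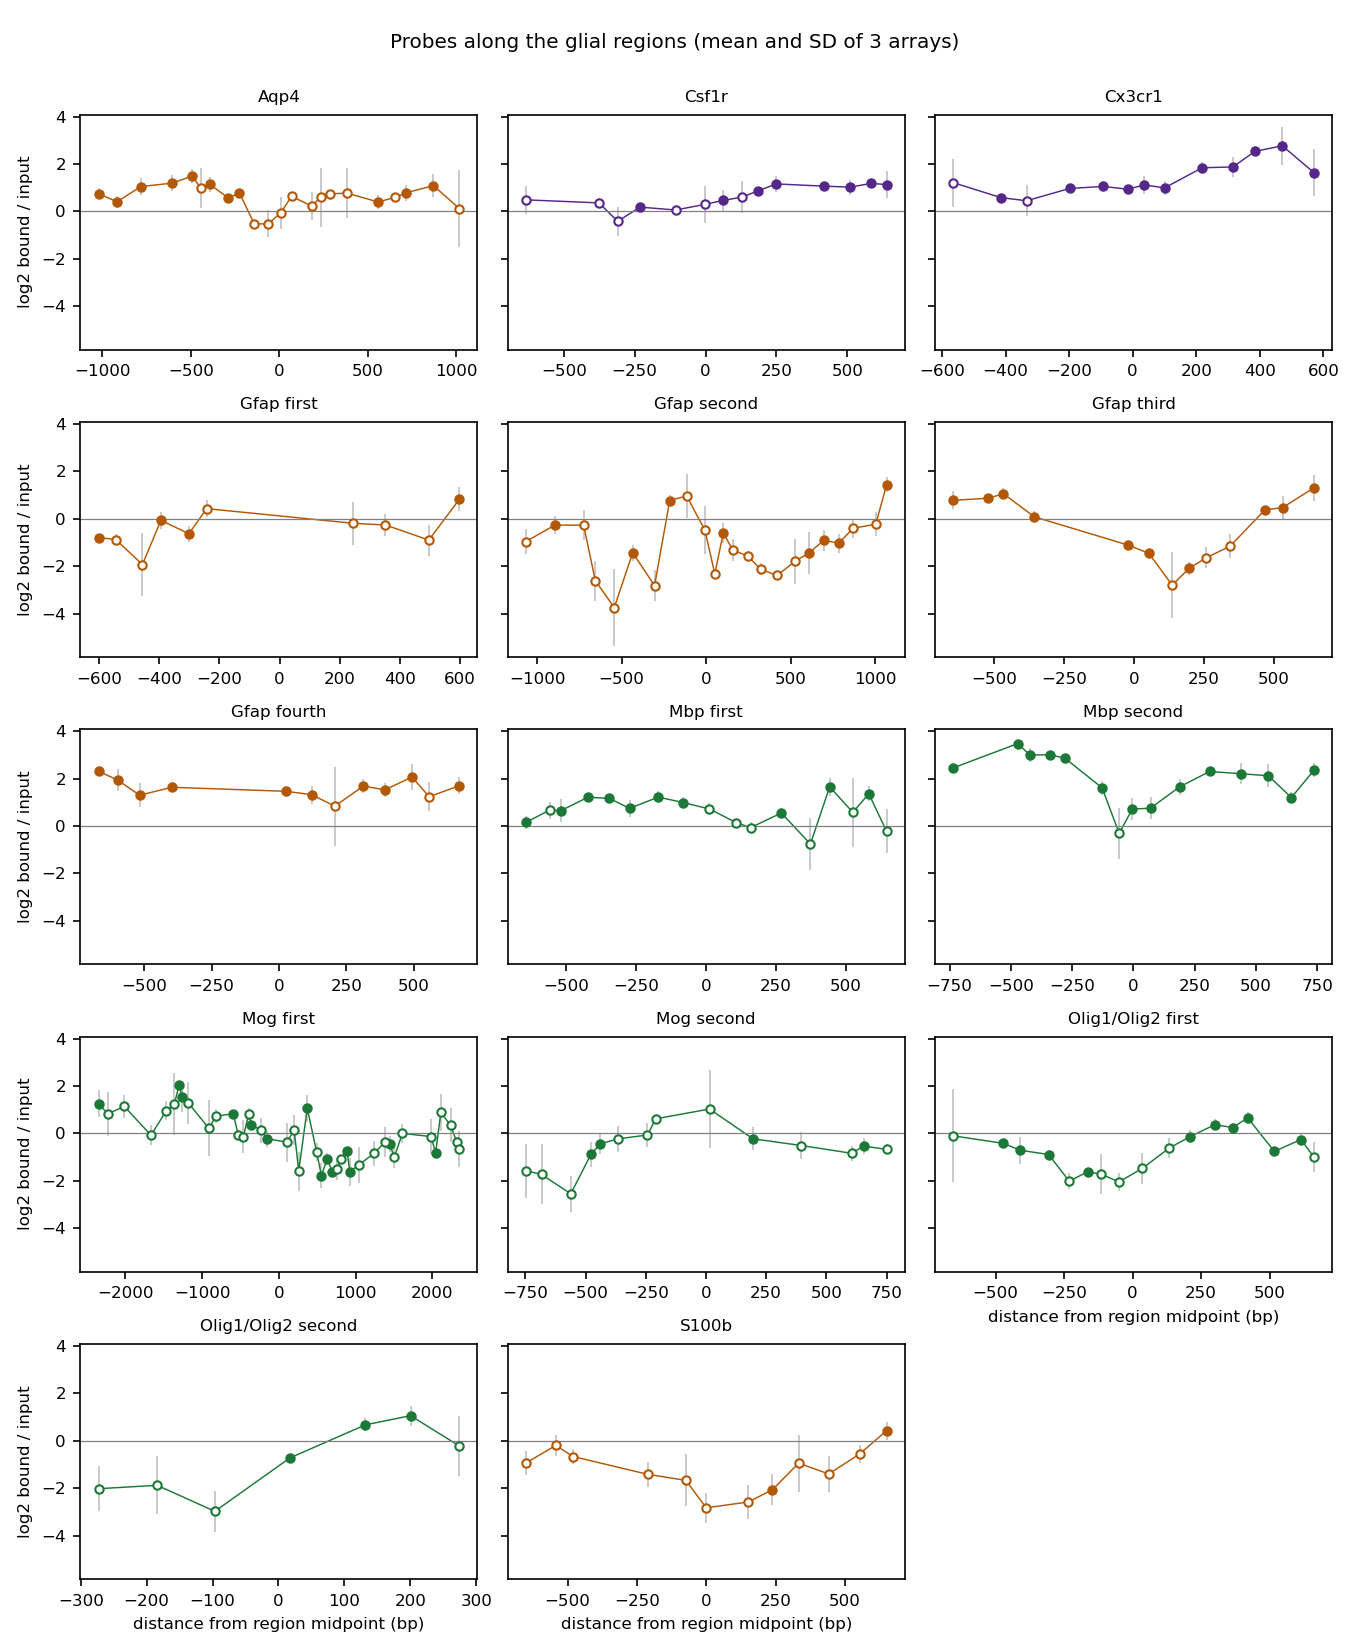
Mean log2 bound over input of each probe (vertical axis, error bars SD of 3 arrays) by distance from the midpoint of its region in bp (horizontal axis), with 1 panel per region in order of coordinates within a window. Filled points had bound DNA well above background on all 3 arrays and open points did not; lines only join neighbours. The third Gfap region, S100b and the second Mbp region dip near the midpoint, and the second Olig1/Olig2 region steps from about -2.98 to 1.06.

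Gfap encodes the intermediate filament protein of astrocytes. In RefSeq it is transcribed towards lower coordinates, with Fam187a and Ccdc103 on its lower-coordinate side and Kif18b on the other, and the regions could belong to any of them. Its window on chromosome 11 held 4 regions, and their means spanned a wider range than those of the other windows with more than 1 region. The fourth, from 102758316 to 102759699 (12 probes over 1384 bp), was at 1.88, 1.39 and 1.50, a mean of 1.59 ± 0.26 (n = 3, limma adjusted p = 1.1e-06). The other 3, all at lower coordinates, were low on every array. The third, from 102745290 to 102746629, lay 11686 bp before the fourth and was at -0.19, -0.48 and -0.57, a mean of -0.41 ± 0.20 (limma adjusted p = 0.0118). The fourth exceeded it by 2.07, 1.87 and 2.07, or 2.00 ± 0.12 (limma adjusted p = 7.29e-08).

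Nearly all probes of the fourth Gfap region were enriched. Of its 12 probes 11 were higher, between 1.24 and 2.32, and 33 of 36 bound measurements were above background. The exception, at 0.84 ± 1.66, was above background on 1 array only. Centre and edges differed by -0.30 ± 0.09 (limma adjusted p = 0.318), and the sides by 0.31 ± 0.36 (limma adjusted p = 0.225). With loess the sides differed by 0.70 and this was called.

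The third Gfap region had another shape, with a trough between enriched flanks. Centre probes averaged -1.87 ± 0.30, those at the edges 0.86 ± 0.30. The difference was -2.62, -2.94 and -2.61, a mean of -2.72 ± 0.19 (n = 3, limma adjusted p = 2.46e-05), larger in size than 99.4% of the 18326 regions compared this way. It stayed called in each alternative that gave a value, between -3.19 with loess and -1.48 with normexp. A run of 6 consecutive probes over 419 bp, from 102745910 to 102746328, averaged -1.71 (-1.42, -1.93 and -1.78). The lowest, from 102746066 to 102746125, was at -2.80 ± 1.38 with bound DNA above background on 1 array. The flanks reached 1.06 on 1 side and 1.31 ± 0.56 on the other. The mean of this region hides that shape, and its call was lost with loess (-0.25), with input above background (-0.23), and without replicate 2 (-0.38) or replicate 3 (-0.33). With the series matrix values it was 0.04.

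The second Gfap region, from 102741334 to 102743527 (23 probes over 2194 bp), was at -1.22, -1.09 and -1.03, a mean of -1.11 ± 0.10 (limma adjusted p = 6.91e-06), above 5.68% of all regions. Of its probes 14 were lower and 2 higher. A run of 8 lower probes over 679 bp averaged -1.57 (-1.74, -1.34 and -1.63). One probe inside the region, from 102742193 to 102742237, was at 1.01, 0.59 and 0.70, each channel above background on every array, and the last probe reached 1.44 ± 0.32. The lowest probe of the whole set was here, from 102741862 to 102741912, at -5.52, -3.43 and -2.29, with bound DNA above background on 1 array. The first Gfap region, from 102738838 to 102740091, was at -0.49, -0.43 and -0.40, a mean of -0.44 ± 0.05 (limma adjusted p = 0.00525). The second lay below it by -0.67 ± 0.05 (limma adjusted p = 0.00184), which was -0.27 and not called with both channels above background. With the series matrix values the first region was at -0.07 and not called.

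Aqp4 encodes the water channel of astrocyte endfeet. Its only region, on chromosome 18 from 15561306 to 15563394 (22 probes over 2089 bp), was at 0.84, 0.38 and 0.58, a mean of 0.60 ± 0.23 (n = 3, limma adjusted p = 0.00127). All arrays were above 0, but with arrays centred on the mode the value was -0.11 and not called. Of its probes 9 were higher and none lower. Its sides did not differ by the test (0.13 ± 0.31, limma adjusted p = 0.624), although they were measured unequally, with 24 of 33 bound measurements above background in the lower-coordinate side and 11 of 33 in the other. In all, 7 of the 22 probes were above background in neither channel on any array. With the series matrix values the sides of the region differed by 0.72, which was called. A run of 3 probes over 344 bp in the better-measured side averaged 1.25, and the highest probe, from 15561835 to 15561881, was at 1.50 ± 0.28.

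S100b encodes a calcium-binding protein abundant in astrocytes. Its region on chromosome 10, from 75715402 to 75716752 (12 probes over 1351 bp), had the lowest mean of the set. It was at -0.97, -1.65 and -1.09, a mean of -1.24 ± 0.36 (n = 3, limma adjusted p = 1.42e-05), and 3.68% of all regions were lower. The second Gfap region was lower than S100b with loess (-0.96 against -0.80), with normexp (-0.50 against -0.46), over probes with input above background (-1.42 against -1.41) and without replicate 2 (-1.12 against -1.03). Of its probes 7 were lower and none higher. Input was above background in 32 of 36 measurements and bound DNA in 13 of 36, so the level is in part an upper limit. Around the midpoint 5 consecutive probes over 502 bp averaged -2.11 (-1.55, -2.72 and -2.06), with the lowest, from 75716049 to 75716105, at -2.83 ± 0.63. Centre probes averaged -2.36 ± 0.75 against -0.31 ± 0.12 at the edges, a difference of -2.05 ± 0.73 (limma adjusted p = 0.000191), with arrays at -1.46, -2.86 and -1.81. The sides differed by -0.10 ± 0.40 (limma adjusted p = 0.715). With normexp the level of the region was -0.46 and still called, and it had no value over probes with both channels above background.

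Microglia were represented by a pair of surface receptors. Cx3cr1 encodes the receptor of fractalkine, a chemokine that neurons make. Its region on chromosome 9, from 119977179 to 119978364 (13 probes over 1186 bp), was at 1.32, 1.45 and 1.38, a mean of 1.39 ± 0.07 (n = 3, limma adjusted p = 1.3e-06). Every array was above all 3 of the Csf1r region. Of the 13 probes 10 were higher and none lower, and they formed 1 unbroken run of 814 bp with a mean of 1.58. All 30 bound measurements in that run were above background. Enrichment was uneven along it. The lower-coordinate side was at 0.87 ± 0.29 and the higher-coordinate side at 1.83 ± 0.24, a difference of -1.33, -1.18 and -0.36 with a mean of -0.96 ± 0.52 (limma adjusted p = 0.00453). The highest probe, from 119978213 to 119978272, was at 2.77 ± 0.79, with input above background on 1 array only, while its neighbour at 2.54 was above background in both channels on all 3.

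Csf1r encodes the receptor of colony stimulating factor 1, on which microglia depend for survival. Its region on chromosome 18, from 61264344 to 61265666 (14 probes over 1323 bp), was at 0.73, 0.59 and 0.50, a mean of 0.61 ± 0.12 (n = 3, limma adjusted p = 0.000709). All arrays were above 0, and centring on the mode moved the value to -0.11 without a call. The level again differed along the region. The lower-coordinate side was at 0.16 ± 0.06 with none of 6 probes called, and the other at 0.94 ± 0.17 with 6 of 8 higher. Their difference was -0.92, -0.71 and -0.70, a mean of -0.78 ± 0.12 (limma adjusted p = 0.00569), but with loess it was -0.34 and not called. The 6 higher probes formed a run of 500 bp with a mean of 1.07 (1.17, 0.96 and 1.10), every bound measurement above background. In the other side bound DNA was above background in 6 of 18 measurements.

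**Figure D4:**
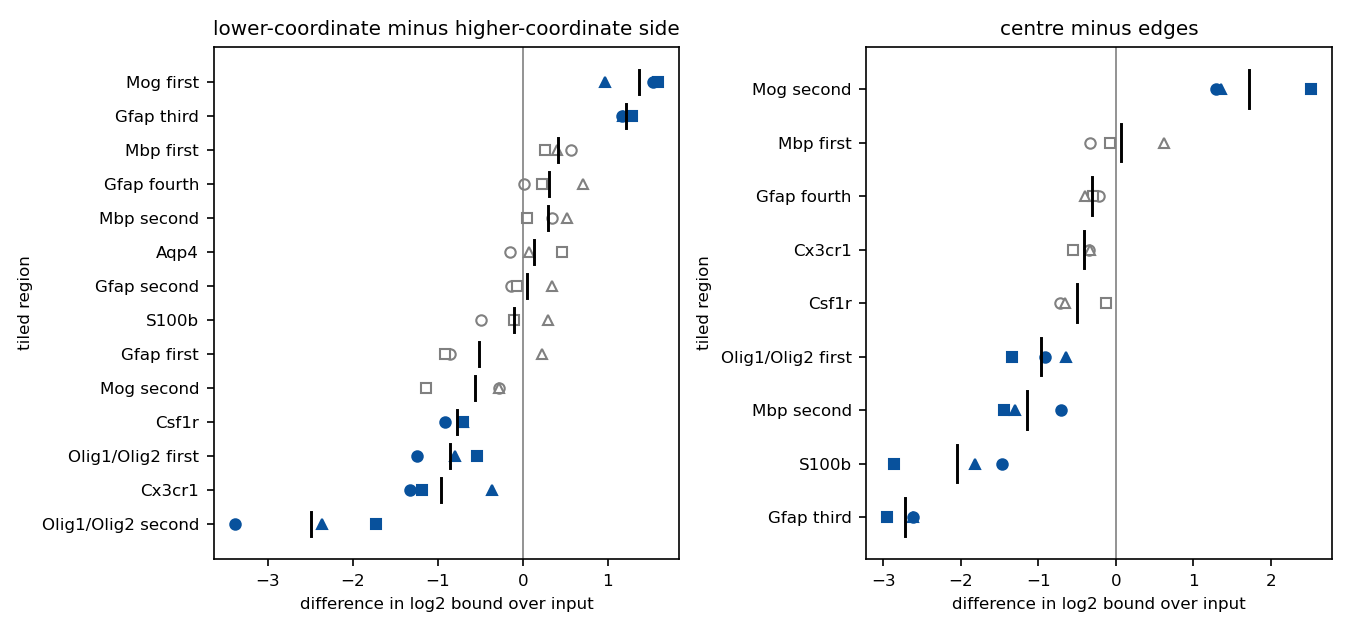
Differences within regions in log2 bound over input (horizontal axes), as the lower-coordinate minus the higher-coordinate side for 14 regions (left) and the centre minus the edges for the 9 regions of standard length (right). Circles, squares and triangles are replicates 1, 2 and 3, black bars their mean, and filled symbols mark differences past the limma threshold; the second Olig1/Olig2 region differs most by sides and the third Gfap region most by centre.

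Counted over the set, the sides differed in 6 of 14 regions, 2 with the lower-coordinate side higher and 4 with it lower, against 25.9% and 26.7% of all regions. The median size of the difference was 0.54, close to 0.57 over all regions. Among the 9 regions of 1000 to 1800 bp with enough probes, the centre was below the edges in 4 and above in 1, against 33.5% and 14.7%. The 4 were the third Gfap region, S100b, the second Mbp region and the first Olig1/Olig2 region. For neighbouring regions of 1 window, 5 of 6 differences were called, 3 with the region of higher coordinates higher and 2 with it lower, against 31.9% and 31.8% of all neighbouring pairs at most 100 kb apart.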

How the data were processed

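Intensities were read from 3 Agilent Feature Extraction files that the authors deposited. Per the file headers, version 10.7.3.1 made them on a custom mm9 design, with background subtraction, spatial detrending and 1 linear dye factor per channel. The deposited processed intensity of bound DNA was above 0 on each of the 24254 to 44517 spots per array whose background-subtracted signal was not. The log2 ratios of the deposited series matrix tracked bound over input background-subtracted medians (r = 0.999 or more); the sources used here do not give their normalization, and their column medians were -0.97 on each array. Log2 of bound over input processed intensity was computed for each spot after leaving out 10 to 17 outlier-flagged spots per array, repeated probes were averaged, and each array was centred on its median. Before centring the medians were -0.19, -0.19 and -0.09. Bound DNA was well above background for 47.3% to 65.9% of probes per array and input for 69.0% to 83.3%.

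Regions, probes, the lower-coordinate and higher-coordinate sides of a region (at least 3 probes each), centre (within 200 bp of the midpoint) minus edges (more than 500 bp from it, at least 2 probes each), and neighbouring regions were each fitted against 0 over the whole array with limma 3.58.1 (R 4.3.3, empirical Bayes, Benjamini-Hochberg, threshold 0.05), which was tested on simulated data. The fit by region used runs of at least 3 probes. All regions of the windows are reported, with the highest or lowest probe of those described in full. Normexp (offset 50) used spot medians in place of means. The filter on both channels set the zero of each array anew at the median of the probes it kept. The filter on input kept the zero of the main setting. Members and lists were chosen with earlier results of these data known. Other glial genes were not analysed here, since no annotation of mm9 was used, and RefSeq (GRCm38.p6) served only for neighbours, strand and sequences.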

Additional observations from a re-analysis of the deposited data

How the results depend on the processing

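The number of arrays, 3 in 1 group, limits the precision, and bound signal near background limits the low regions most. Centring on the mode moved the zero up: 3 regions were higher and 8 lower, against 8.70% and 76.8% of all regions, and Aqp4 (-0.11), Csf1r (-0.11) and the first Mbp region (-0.078) changed sign. Higher probes then numbered 27 and lower ones 89 of 231, against 7.83% and 41.0% of all probes. With the series matrix values 3 regions and 29 of 220 probes were lower, against 36.5% of all regions and 16.3% of all probes, and the third Gfap region was at 0.040. With both channels above background, and the zero set anew at the median of the probes kept, 33 probes were lower out of 116 tested, against 34.97% of all probes. Leaving out 1 replicate gave 35 to 51 higher and 29 to 45 lower probes, and the first Mog region lay between -0.11 and 0.025. Without replicate 2 there were 35 higher and 29 lower probes, and without replicate 3 there were 46 and 30, against 10.4% and 14.3%, and 13.3% and 15.2%, of all probes. The filters on dim probes leave fewer probes to test by construction, and that on both channels leaves out probes for low bound signal. Other causes were not tested. Regions with the lower-coordinate side higher numbered 4 with loess and 4 with the series matrix; those with it lower numbered 2 with both channels above background and 2 with input above background, where 9 and 11 regions could be tested. A higher centre was called in 0 of 5 regions with both channels above background and in 0 of 7 with input above background by limma (1 and 0 at an unadjusted p under 0.05), the second Mog region having no value there. Neighbouring regions with the higher-coordinate one lower numbered 1 with loess, the series matrix or either filter, and 1 to 2 with a replicate left out. Differences that were not called also changed sign. By sides these were the second Gfap region (-0.047 with normexp, -0.12 with the series matrix, -0.41 with input above background, -0.10 to 0.14 with a replicate left out), the fourth (-0.13 with normexp), S100b (0.024 with the series matrix, 0.18 with loess, 0.21 with normexp, -0.30 to 0.10 with a replicate left out), the first Mbp region (-0.31 with both channels above background) and Aqp4 (-0.039 to 0.27 with a replicate left out). By centre they were Cx3cr1 (0.039 with normexp, 0.43 with the series matrix, whereas loess gave -1.21, which was called) and the first Mbp region (-0.0049 with normexp, -0.0086 with input above background, -0.21 to 0.27 with a replicate left out). The pair of Olig1/Olig2 regions differed by 0.69 with both channels above background, where this was called, 0.15 with normexp, 0.27 with loess and -0.32 to 0.13 with a replicate left out. Other differences not called in the main setting were called in at least 1 alternative: the sides of both Mbp regions, Aqp4, the second Mog region, the first Gfap region and the fourth, and the centre of Csf1r. No paired analysis was possible because there is 1 group, and bound and input of a pool are already compared within each array.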
